A study of Saccharomyces cerevisiae with 8 samples.

Results

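MNase-rpL27 is a fusion of micrococcal nuclease to the large subunit ribosomal protein rpL27, and its cuts in 27SB-preLSUs were read as primer extension stops along 5.8S rRNA, the internal transcribed spacer ITS2 and 25S rRNA. The members are 2 of the 8 libraries of the series: particles purified via Noc3-TAP from yeast expressing MNase-rpL27, and particles purified the same way from yeast expressing no MNase. Both were followed over all 3786 nucleotides of the 3 regions, of 10000 nucleotides in the table, with 158 nucleotides in 5.8S rRNA, 232 in ITS2 and 3396 in 25S rRNA. The study was made in Saccharomyces cerevisiae strains of the S288c background that were grown in rich glucose medium. Besides the 2 libraries above, it holds Noc3-TAP libraries with MNase-rpL5 and MNase-rpL35 and the same 4 strain types with Lsg1-TAP, which purifies the later 25S-preLSUs. According to the labels, the MNase strains carry an HA-tagged fusion, and all Noc3-TAP strains, the one without MNase included, carry the purification tag on Noc3 and were grown in 6 litre cultures. In the MNase strains the fusion was the sole form of that ribosomal protein, and all purified particles, those without MNase included, were incubated with calcium. Each condition is 1 library, so there is no spread between replicates, no test was run, and every difference below is between 2 libraries.

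During the making of the large ribosomal subunit, 27SB pre-rRNA holds 5.8S rRNA, ITS2 and 25S rRNA in one chain, and ITS2 is later cut at site C2 and trimmed away. Noc3 is an assembly factor found on nuclear large subunit precursors, and Lsg1 is a GTPase of late, cytoplasmic ones. Micrococcal nuclease needs calcium and cuts unpaired RNA more readily than paired RNA, so a tethered copy cuts exposed stretches within reach of the protein that carries it. Of the 3 fusion partners, rpL35 contacts 5.8S rRNA beside the polypeptide exit tunnel, rpL27 binds 25S rRNA, and rpL5 binds 5S rRNA in the central protuberance. Reverse transcriptase stops at the new 5′ end that a cut leaves. It also stops at base-methylated nucleotides and at some other places with no cut at all, which is why the library without MNase is needed.

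Designed oligonucleotides of the study are shown, and only the first of them affects where a stop can be read here. The first primed the sequenced libraries at random places, with its random bases in capitals and followed by 1 further mixed base, S, at its 3′ end. The other two are the study's primers for targeted extension in ITS2, the spacer that holds 3 of the stops called with MNase-rpL27, and O3840 also served as a probe for central ITS2 fragments. The targeted extensions were read from gels and are not used here.
O3955: agacgtgtgctcttccgatctNNNNNNNN
O3840: gataacgttccaatacgctcagt
O3910: tgaggtcaaactttaagaac

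The measured quantity is the termination to coverage ratio (TCR), which says what share of the unique cDNA fragments that reach a nucleotide also end at it, given below in percent. Unless a single nucleotide is named, a TCR is that of a window of 3 nucleotides, as the chance of a stop at the nucleotide or either direct neighbour. The authors' noise estimate for the centre nucleotide is given beside it. The table gives no coverage, and with the depth unknown no counting interval can be given. Chromosomal positions are those of 1 annotated copy of the rDNA repeat, the first on chromosome XII in R64. In it, 5.8S rRNA spans 455414 to 455571, ITS2 455182 to 455413 and 25S rRNA 451786 to 455181, all on the reverse strand. A stop was called strong at a window TCR of at least 15% if it exceeded both the noise and the window without MNase by over 5 times. A weaker stop needed at least 3%, and over 3 times each of them. Both excluded nucleotides within 2 of the 6 stops that need no MNase, and those with a noise estimate listed at 0.

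The stops that need no MNase were alike in both libraries. For these stops each library is given by its own highest window centred within 2 nucleotides, so the centres may differ between the libraries. At m1A645 of 25S rRNA, a methylated base that blocks reverse transcriptase, the TCR was 99.1% with MNase-rpL27 and 99.0% without MNase. At m1A2142 it was 96.1% with MNase-rpL27 and 96.6% without MNase. The m3U2634 stop stood at 61.2% with MNase-rpL27 against 66.0% without MNase, and m3U2843 at 60.9% with MNase-rpL27 against 57.8% without MNase. At the 5′ end of 5.8S rRNA the values were 67.3% with MNase-rpL27 and 64.2% without MNase. The mature 5′ end of 25S rRNA, which 27SB pre-rRNA does not have as a terminus, gave 3.78% with MNase-rpL27 and 4.85% without MNase. Over the 6 stops the difference ranged from -4.71 to 3.10 percentage points.

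MNase-rpL27 gave 3 strong stops, at ITS2 198, ITS2 139 and 25S 1559, and 8 weaker ones, 1 in ITS2 and 7 in 25S rRNA. No stop was called in 5.8S rRNA, where the median noise was 3.56%. The lowest window TCR that could pass the weaker rule there had a median of 10.6% over nucleotides, and at no 5.8S nucleotide could 3% have passed, so the rule could not show low stops in 5.8S rRNA. Of the 3630 nucleotides that could be called, the windows of 0.248% passed the strong rule and those of 0.661% passed the weaker rule. With the libraries exchanged, 0% passed the strong rule and 0.0826% the weaker one, which gave 3 weaker stops that were higher without MNase. The 3 strong stops were called under every alternative tried, some of them through a neighbouring window. Over the 7246 nucleotides of the whole table that could be called, spacers and 18S rRNA included, the windows passing were 0.166% and 0.428% with MNase-rpL27 higher and 0.0276% and 0.110% with no MNase higher. All 8 weaker stops fell below the rule when the noise estimate was combined over the 3 nucleotides of the window, as did the 3 in the other direction, and 4 of the 8 passed only through a window centred on a direct neighbour of the stop nucleotide.

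**Figure D1:**
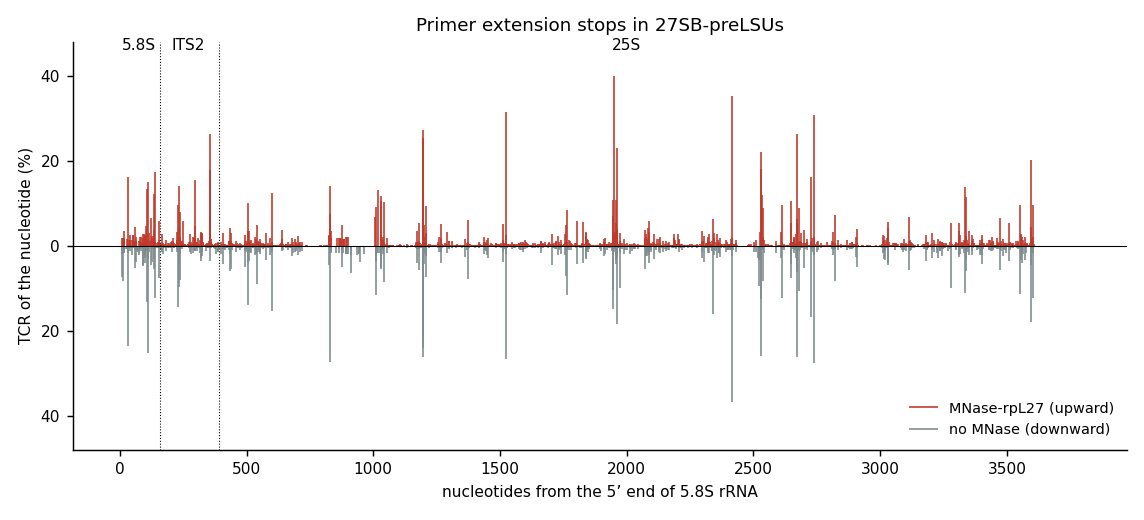
TCR of each nucleotide in percent along 5.8S rRNA, ITS2 and 25S rRNA, upward for MNase-rpL27 and downward for no MNase, with the 6 stops that need no MNase left out. Most tall lines have a partner of similar height below the axis, and those of ITS2 198 (26.3% with MNase-rpL27, 3.60% without MNase) and 25S 1559 (40.0% with MNase-rpL27, 0.730% without MNase) do not.

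The highest window of the fusion in ITS2 was at nucleotide 198 (chromosome XII, 455216). Its TCR was 43.8% with MNase-rpL27 and 4.45% without MNase, 9.84 times as high, over a noise of 1.42%. With MNase-rpL5 it was 5.28% and with MNase-rpL35 2.83%, both close to the library without MNase. The signal with MNase-rpL27 spread over 3 nucleotides, with 7.29% at nucleotide 197, 26.3% at 198 and 17.8% at 199. Without MNase the same nucleotides stood at 0.302%, 3.60% and 0.581%. At 197 and 199 the library without MNase was thus under the noise, and at 198 above it. By nucleotide 200 the value with MNase-rpL27 was down to 1.61%, against 0.625% without MNase.

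Near processing site C2, which the table marks at ITS2 137, the stop at ITS2 139 (455275) had a TCR of 20.9% with MNase-rpL27 and 2.59% without MNase, 8.04 times as high, over a noise of 1.22%. This stop was not particular to rpL27, since its TCR was 15.8% with MNase-rpL5 and 20.4% with MNase-rpL35. Nucleotide 139 alone held 15.5% with MNase-rpL27 against 1.31% without MNase, and nucleotide 138 held 4.69% with MNase-rpL27 against 0.116% without MNase. At C2 itself, nucleotide 137, the TCR was 0.688% with MNase-rpL27 and 0.0579% without MNase, both under the noise of 1.43%.

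The third stop in ITS2, at nucleotide 90 (455324), was a weaker one. Its window had a TCR of 7.08% with MNase-rpL27, 2.09% with MNase-rpL5, 1.19% with MNase-rpL35, against 0.525% without MNase, over a noise of 1.27%. Almost all of it came from a single nucleotide, number 90, with 5.83% with MNase-rpL27 and 0.394% without MNase. The study describes cuts around ITS2 89 and 198 with MNase-rpL27, and a less efficient one around 138. A size cutoff for cDNAs left some of its sites to targeted extension alone. The TCRs here are thus not a ranking of the ITS2 cuts by efficiency. Both ITS2 90 and ITS2 198 were over 2 times as high with MNase-rpL27 as with either other fusion, and they lie 108 nucleotides apart. ITS2 139, the stop that all 3 fusions share, lies between them, 49 nucleotides after the first and 59 before the second.

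**Figure D2:**
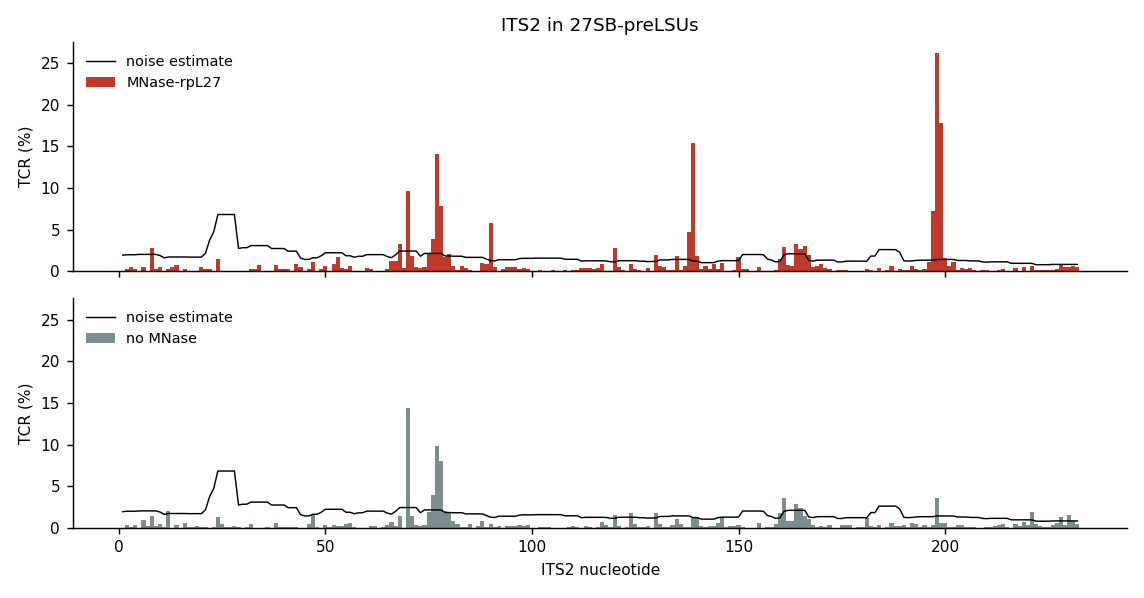
TCR of each nucleotide of ITS2 in percent, with MNase-rpL27 in the upper panel and no MNase in the lower one, and the noise estimate as a line. Peaks around nucleotides 70 and 78 stand in both libraries, while those at 90 (5.83% and 0.394%), 139 (15.5% and 1.31%) and 198 (26.3% and 3.60%) stand above the noise by a wide margin only with MNase-rpL27.

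The strong stop of 25S rRNA stood at 25S 1559 (453623), in the expansion segment ES19 of domain III. It was 43.4% with MNase-rpL27, 44.2% with MNase-rpL5, 49.4% with MNase-rpL35, against 2.47% without MNase, over a noise of 2.58%. Nearly all of it lay on 1 nucleotide, with 40.0% with MNase-rpL27 against 0.730% without MNase. The 3 fusions thus gave like values there, and rpL27 was the lowest of them. At nucleotide 1557, only 2 nucleotides away, the library without MNase had the higher value, with 10.7% with MNase-rpL27 and 14.8% without MNase.

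A weaker stop of the same expansion segment stood 10 nucleotides further on, at 25S 1569 (453613). Its TCR was 18.5% with MNase-rpL27, 9.77% with MNase-rpL5, 33.7% with MNase-rpL35, against 5.58% without MNase, over a noise of 2.56%. Its 3.32-fold ratio to the library without MNase kept it out of the strong rule. The neighbouring sites that the study names did not pass by their own windows. At 25S 1571 the TCR was 28.6% with MNase-rpL27, 8.01% with MNase-rpL5, 30.2% with MNase-rpL35, against 22.3% without MNase. Most of the value with MNase-rpL27 was thus also in the library without MNase, while MNase-rpL5 lay below that library. At 25S 1568 the TCR was 17.8% with MNase-rpL27 and 7.64% without MNase.

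Weaker stops in 25S rRNA outside the sites the study names numbered 6. The 3 highest were in a short stretch just 5′ of m1A645. At 25S 628 (454554) the TCR was 13.2% with MNase-rpL27, 1.74% with MNase-rpL5, 1.08% with MNase-rpL35, against 1.75% without MNase, over a noise of 2.02%. At 25S 640 the passing window, centred on nucleotide 639 (454543), had 11.6% with MNase-rpL27, 4.10% with MNase-rpL5, 7.92% with MNase-rpL35, against 3.39% without MNase. At 25S 615, read through the window of nucleotide 614 (454568), the TCR was 6.67% with MNase-rpL27 and listed at 0 in the other 3 libraries, over a noise of 1.88%. The window centred on 615 did not pass, as its 6.67% with MNase-rpL27 was 2.71 times the noise of 2.46%. In that window MNase-rpL5 had 1.10% and MNase-rpL35 1.61%. In the passing windows, all 3 stops rested on 1 nucleotide each.

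These 3 stops lie where the profiles are sparse. Of the 43 nucleotides between 25S 600 and 642, 37 were listed at 0 with MNase-rpL27, 30 with MNase-rpL5, 31 with MNase-rpL35, against 34 without MNase. The values above 0 in that stretch had a median of 9.81% with MNase-rpL27 and 3.57% without MNase. One of the stops that were higher without MNase, at 25S 620, lies between them. Its own window, which did not pass, had a TCR of 9.09% with MNase-rpL27, 18.7% with MNase-rpL5, 30.3% with MNase-rpL35, against 17.9% without MNase. The passing window, of nucleotide 621, had 0% with MNase-rpL27, 4.46% with MNase-rpL5, 3.37% with MNase-rpL35, against 7.14% without MNase. The window TCR of 99.1% around m1A645 with MNase-rpL27 means that few of the fragments reaching that window pass it. How few fragments cover the stretch beyond it is unknown.

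The remaining 3 weaker stops were lower, and the nucleotides around them mostly had values above 0 in all 4 libraries. At 25S 1814 (453368) the TCR was 4.36% with MNase-rpL27, 2.64% with MNase-rpL5, 2.59% with MNase-rpL35, against 0.722% without MNase, over a noise of 0.933%. At 25S 1797 the passing window, centred on nucleotide 1798 (453384), had 5.05% with MNase-rpL27, 3.42% with MNase-rpL5, 3.92% with MNase-rpL35, against 0.795% without MNase. In both, every fusion stood above the library without MNase. At 25S 2296, by contrast, the window of nucleotide 2297 (452885) had 3.97% with MNase-rpL27, 0.763% with MNase-rpL5, 0.579% with MNase-rpL35, against 1.02% without MNase, over a noise of 0.996%. There only MNase-rpL27 stood above the library without MNase.

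Over all 11 stops, 5 were over 2 times as high with MNase-rpL27 as with the next fusion: ITS2 90, ITS2 198, 25S 615, 25S 628 and 25S 2296. All 11 were called for a high value with MNase-rpL27, which by itself favours a high ratio to the other fusions. The other 6 were not, and of all 11, 2 were also called with MNase-rpL5 and 3 with MNase-rpL35. Called against the same library without MNase, MNase-rpL5 gave 3 strong and 7 weaker stops, with 0.110% and 0.744% of windows passing. MNase-rpL35 gave 6 strong and 4 weaker stops, with 0.413% and 0.689% passing. The 3 comparisons share their library without MNase, so their counts are not independent of each other.

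**Figure D3:**
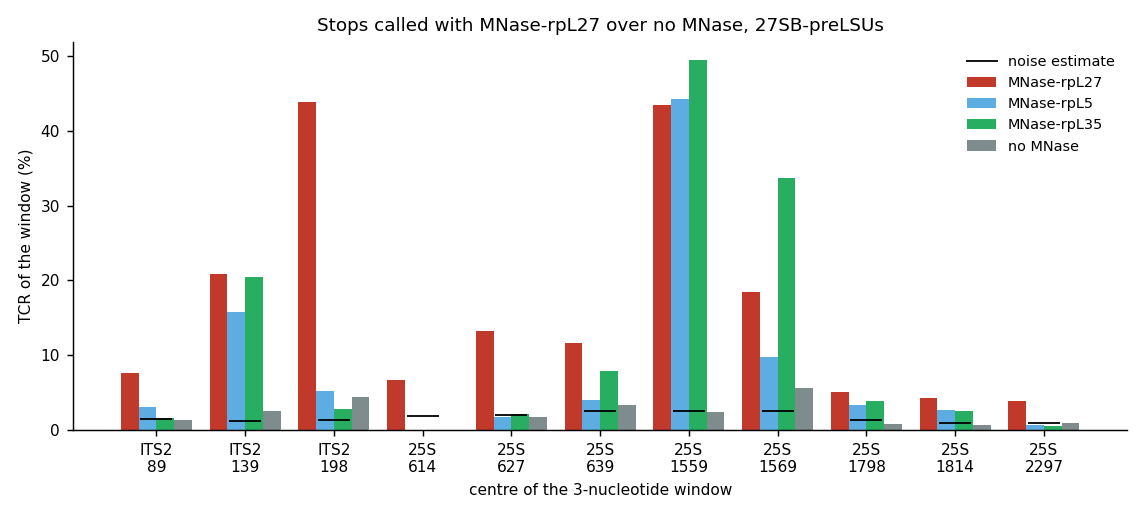
TCR of the passing window in percent at the 11 called stops, with bars for MNase-rpL27, MNase-rpL5, MNase-rpL35 and no MNase and a black dash for the noise estimate. MNase-rpL27 stands alone at ITS2 198 (43.8%) and 25S 627 (13.2%), while all 3 fusions are above 40% at 25S 1559.

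Of 16 sites named by the study in these regions, 3 were strong stops of MNase-rpL27, 3 lay at or within 2 nucleotides of a weaker one (ITS2 89, 25S 1568 and 25S 1571), and 10 were not called. At ITS2 89 the TCR was 7.58% with MNase-rpL27 and 1.31% without MNase. The largest difference among the 10 was at 25S 250, with 6.08% with MNase-rpL27, 2.57% with MNase-rpL5, 16.2% with MNase-rpL35, against 2.69% without MNase. At 5.8S 80, where MNase-rpL35 reached 86.4%, the TCR was 3.03% with MNase-rpL27 and 0.877% without MNase, under a noise of 6.59%. Other sites with a high value for another fusion were closer to the library without MNase. At 25S 1764 the TCR was 1.68% with MNase-rpL27, 26.5% with MNase-rpL35, against 2.53% without MNase, and at 25S 2640 it was 10.1% with MNase-rpL27, 32.8% with MNase-rpL5 and 9.00% without MNase.

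At the other sites of 25S rRNA the values of MNase-rpL27 were low. At 25S 1001 the TCR was 0.300% with MNase-rpL27 and 0.213% without MNase, and at 25S 2089 it was 0.493% with MNase-rpL27 and 0.573% without MNase. At 25S 2643 it was 1.28% with MNase-rpL27 and 1.02% without MNase, at 25S 2540 0.248% with MNase-rpL27 and 0.161% without MNase, and at 25S 2570 0.0823% with MNase-rpL27 and 0.074% without MNase. At 25S 2067 both libraries were listed at 0. The authors sequenced and kept only cDNAs within a size range, which leaves some cuts unreadable in these libraries, so a low value does not show that a site was uncut. None of these pairs of values differed by as much as the noise estimate of its nucleotide, or, at 25S 2067, at all.

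Lowering the fold of the weaker rule to 2 gave 20 weaker stops instead of 8, with 12 more positions. Against them stood 8 stops that were higher without MNase, 5 more than before. The largest of the 12 by difference was 25S 2145, which lies 3 nucleotides from m1A2142 and just outside the excluded stretch. Its own window had 19.4% with MNase-rpL27, 9.94% with MNase-rpL5, 11.5% with MNase-rpL35, against 7.19% without MNase. Next was 5.8S 135, with 17.4% with MNase-rpL27, 1.77% with MNase-rpL5, 1.29% with MNase-rpL35, against 8.71% without MNase. At 25S 441 the own window of the stop nucleotide was lower with MNase-rpL27, at 23.2%, than without MNase, at 28.6%, and the position passed only through a neighbouring window. Under 2 times no MNase by their own windows were also ITS2 120, ITS2 167, 25S 1452, 25S 1682, 25S 1695, 25S 2619 and 25S 2637. Their ratios ran from 1.12 to 1.99, and that of 5.8S 135 was 2.00 after rounding. Other than 25S 250, none of the 12 is a site the study names.

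Of the 3 stops that were higher without MNase, 25S 2133 had a TCR of 0% with MNase-rpL27, 6.06% with MNase-rpL5, 2.38% with MNase-rpL35, against 15.2% without MNase, over a noise of 4.52%. At 25S 1583 the passing window, of nucleotide 1582, had 3.01% with MNase-rpL27, 9.21% with MNase-rpL5, 1.83% with MNase-rpL35, against 10.3% without MNase. The third, 25S 620, was described above. At a single window the library without MNase was thus up to 15.2 percentage points above MNase-rpL27.

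What the 2 libraries had in common was the larger share of the profile. With MNase-rpL27, 1492 of the 3786 nucleotides were listed at 0, or 39.4%, against 1434, or 37.9%, without MNase. The counts at the other end leave out the nucleotides near the MNase-independent stops, so they are of 3758 nucleotides. Of these, 19 were at 15% or more with MNase-rpL27 and 16 without MNase, and 52 against 45 lay between 5% and 15%. Among the same 3758, a TCR above the noise was found at 251 nucleotides with MNase-rpL27 and at 243 without MNase. In both libraries it was found at 174, which leaves 77 with MNase-rpL27 alone and 69 without MNase alone. Across the 3758 nucleotides away from the MNase-independent stops, Spearman's rho between MNase-rpL27 and no MNase was 0.682, a description over nucleotides that share the same molecules and are not replicates. For the other pairs of Noc3-TAP libraries rho ran from 0.643 (MNase-rpL27 with MNase-rpL5) to 0.712 (MNase-rpL5 with MNase-rpL35), so the value is not particular to this pair.

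The cumulative stop load, the sum of the negative natural logarithm of 1 minus TCR, was higher in ITS2 with MNase-rpL27 and nearly level elsewhere. In ITS2 it was 0.971 per 100 nucleotides with MNase-rpL27, 0.621 with MNase-rpL5, 0.520 with MNase-rpL35, against 0.556 without MNase, a ratio of 1.75 to the library without MNase. In 25S rRNA it was 0.482 with MNase-rpL27 and 0.468 without MNase, and in 5.8S rRNA 1.26 with MNase-rpL27, 2.10 with MNase-rpL35, against 1.33 without MNase. Of the difference in ITS2, 84.5% lay in the windows of the 3 called stops. Outside them the load of ITS2 was 0.611 with MNase-rpL27 and 0.544 without MNase. In 25S rRNA outside the called stops it was 0.448 with MNase-rpL27 and 0.465 without MNase.

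Of the 19 segments into which the regions were divided, MNase-rpL27 had the higher load in 11 and no MNase in 8. The largest ratio in 25S rRNA was 1.50, between nucleotides 1401 and 1600, where 0.988 stood with MNase-rpL27 against 0.658 without MNase, and the windows of the 2 called stops at 1559 and 1569 held all of that difference. The lowest was 0.741, in the first 200 nucleotides, with 0.482 with MNase-rpL27 against 0.650 without MNase. At the 3′ end, 128 nucleotides had a noise estimate of 0 and could not be called.

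**Figure D4:**
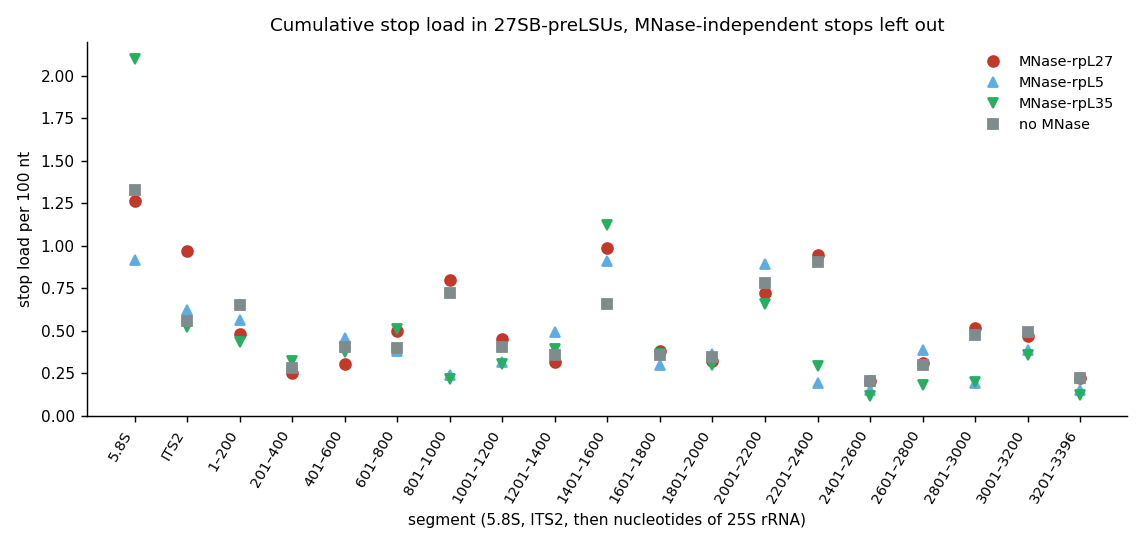
Cumulative stop load per 100 nucleotides in 5.8S rRNA, ITS2 and 17 segments of 25S rRNA, with MNase-rpL27 as circles, MNase-rpL5 and MNase-rpL35 as triangles and no MNase as squares. ITS2 (0.971 against 0.556) and nucleotides 1401 to 1600 (0.988 against 0.658) are where MNase-rpL27 stands clearest above no MNase, and at 801 to 1000 and 2201 to 2400 both lie well above the other fusions.

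In some segments MNase-rpL27 and no MNase were alike and both unlike the other fusions. Between 25S 2201 and 2400 the load was 0.948 with MNase-rpL27, 0.194 with MNase-rpL5, 0.291 with MNase-rpL35, against 0.907 without MNase. Between 25S 801 and 1000 it was 0.800 with MNase-rpL27, 0.239 with MNase-rpL5, 0.217 with MNase-rpL35, against 0.720 without MNase. With the comparison turned round, the library without MNase had 5 strong and 18 weaker stops over MNase-rpL5, with 0.303% and 1.90% of windows passing, and 1 strong and 21 weaker stops over MNase-rpL35, with 0.0275% and 1.76% passing. At 15 stops the library without MNase passed the weaker rule over both MNase-rpL5 and MNase-rpL35 in at least 1 window, a choice that did not use MNase-rpL27. At 13 of them the window centred on the stop nucleotide passed, and at ITS2 78 and 25S 1687 only a neighbouring window did. In the windows of the 15 stop nucleotides MNase-rpL27 ranged from 2.84% to 47.2% with a median of 12.6%, against a range of 4.74% to 44.8% and a median of 11.7% without MNase. The medians with MNase-rpL5 and MNase-rpL35 were 2.73% and 2.68%.

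The ratio of MNase-rpL27 to no MNase over these 15 stops ranged from 0.474 to 1.48 with a median of 1.11, and 14 of the 15 were within 2-fold. At 25S 806 the TCR was 47.2% with MNase-rpL27, 7.87% with MNase-rpL5, 10.1% with MNase-rpL35, against 44.8% without MNase. At 25S 2348 it was 32.5% with MNase-rpL27, 3.62% with MNase-rpL5, 7.84% with MNase-rpL35, against 29.5% without MNase. Both stops were there without a nuclease. The labels give no library preparation date or batch. The rule used to choose them fixes that MNase-rpL5 and MNase-rpL35 are lower than no MNase. A ratio of MNase-rpL27 to another fusion, such as those used above for preference, therefore can hold a difference in background as well as in cutting, and their parts cannot be told apart. Of the 15 stops, all but 25S 1687 were also over 2 times as high with MNase-rpL27 as with the next fusion. At the 5 preferred stops the library without MNase ranged from 0% to 4.45%.

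**Figure D5:**
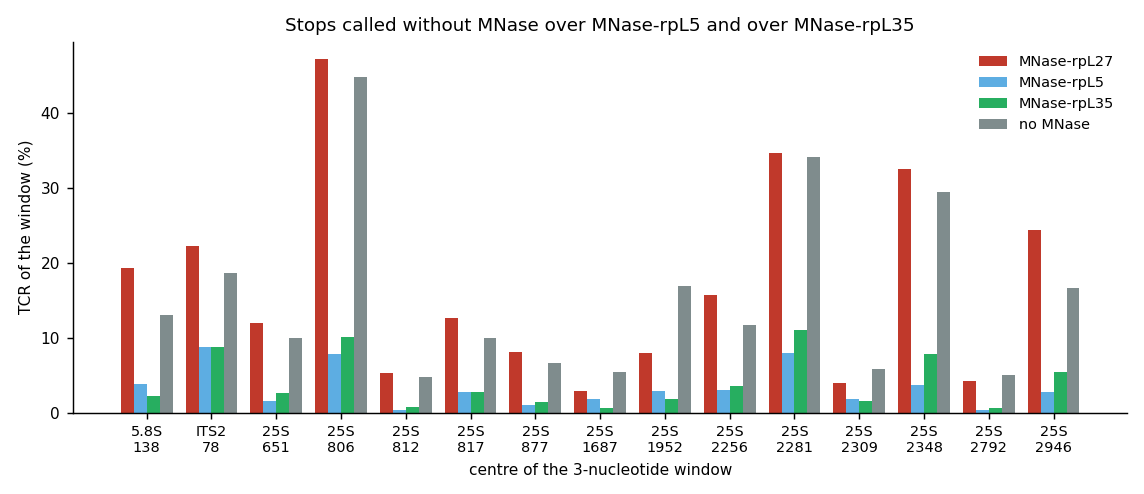
TCR in percent, in the window centred on the stop nucleotide, at the 15 stops where no MNase passed the weaker rule over both MNase-rpL5 and MNase-rpL35, with bars for MNase-rpL27, MNase-rpL5, MNase-rpL35 and no MNase. MNase-rpL27 follows no MNase, as at 25S 806 (47.2% and 44.8%), and is within 2-fold of it at 14 of the 15.

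In the later 25S-preLSUs purified via Lsg1-TAP, MNase-rpL27 and no MNase were measured in their own pair of libraries, and the precursors were set side by side with no test. At 25S 1559 the TCR in 25S-preLSUs was 15.1% with MNase-rpL27 and 1.29% without MNase, a difference of 13.9 percentage points where 27SB-preLSUs had 41.0. At 25S 1569 it was 71.0% with MNase-rpL27 and 2.48% without MNase, a difference of 68.5 where 27SB-preLSUs had 13.0. At ITS2 198 it was 58.1% with MNase-rpL27 and 5.56% without MNase over a noise of 4.36%, and at ITS2 139 it was 47.4% with MNase-rpL27 and 38.9% without MNase over a noise of 11.0%. At ITS2 90 it was 22.2% with MNase-rpL27 and listed at 0 without MNase, over a noise of 11.6%. In 25S-preLSUs most ITS2 has been removed by processing, so these ITS2 percentages are shares of whatever ITS2 remained, and are not set against those of 27SB-preLSUs. Of the weaker stops outside the named sites, 25S 640 had 6.58% with MNase-rpL27 and 1.39% without MNase in 25S-preLSUs, in its own window. In the window of nucleotide 639, which passed in 27SB-preLSUs, it had 4.11% with MNase-rpL27 and 0.874% without MNase. The other 5 were at most 1.41% there with MNase-rpL27.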

How the data were processed

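Reads were mapped to rDNA by the authors, with Bowtie2 (version not given in the sources used here) and the R64 and sacCer3 genomes named in the submitters' processing notes. Fragments were made unique by random barcodes, and the deposited table gives, as a fraction, the TCR of every nucleotide and the authors' noise estimate. From these, the window TCR was computed as 1 minus the product of 1 minus TCR over the nucleotide and 1 neighbour on each side. Windows that passed no more than 2 nucleotides apart counted as 1 stop, placed at their highest nucleotide. The sites named are those of the study, every strong stop, the 20 weaker stops with the largest difference and the 5 largest in the other direction; the lower-fold and shared stops were named after their values were seen. The members, rules and lists were chosen with earlier results of these data known. The calling code was checked on simulated stops placed at quiet, low-noise nucleotides of the profile without MNase. That check does not show how many of the calls in the real libraries are false. Noise, window, thresholds and joining were varied. No genome sequence was used here, so bases at stops were not analysed. Python 3.11.15, numpy 2.4.6, pandas 2.3.3 and matplotlib 3.10.9 were used.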

Additional observations from a re-analysis of the deposited data

Results flagged for a closer look

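Outside 5.8S rRNA, ITS2 and 25S rRNA, 3 stops, each 1 or more passing windows, were called by the same rules with MNase-rpL27 in 27SB-preLSUs. At nucleotide 662 of the 5′ external spacer the TCR was 50.0% with MNase-rpL27 and listed at 0 in the other 3 libraries, over a noise of 5.17%. At 18S 1061 it was 5.57% with MNase-rpL27, 0.412% with MNase-rpL5, 0.529% with MNase-rpL35, against 0.218% without MNase, over a noise of 0.178%. At 18S 1236 it was 6.33% with MNase-rpL27, 1.18% with MNase-rpL5, 0.156% with MNase-rpL35, against 1.14% without MNase, over a noise of 2.61%. In the 25S-preLSU libraries 18S 1061 had 72.5% with MNase-rpL27 and 1.36% without MNase, over a noise of 0.369%. There 18S 1236 had 0.446% with MNase-rpL27 and 7.77% without MNase, the opposite order to 27SB-preLSUs. These differences were not tested. At the spacer stop the nucleotides on either side were listed at 0 with MNase-rpL27, and how few fragments cover it is unknown. The 18S rRNA is not part of a large subunit precursor.

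At 2 of the 11 stops called in ITS2 and 25S rRNA, the difference between MNase-rpL27 and no MNase had the opposite sign in the precursors. At 25S 628 it was -3.49 percentage points in 25S-preLSUs (0.642% with MNase-rpL27 and 4.14% without MNase) and 11.4 in 27SB-preLSUs. At 25S 2296 it was -0.0625 points in 25S-preLSUs (0.230% with MNase-rpL27 and 0.293% without MNase, both under the noise of 0.369%) and 2.85 in 27SB-preLSUs. Neither difference between precursors was tested, since each rests on 1 library per condition.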

How the results depend on the processing

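The number of strong stops was 3 or 4 under every alternative tried. The 8 weaker stops became 5 with the stop nucleotide alone, 0 with the noise combined over the window, 20 with a fold over 2 and 2 with a fold over 5. The 3 stops higher without MNase became 1 with the stop nucleotide alone and 0 with the noise combined over the window, and, with folds chosen after seeing the data, 8 at over 2 times and 0 at over 5 times. Other windows, minimums, distances and the nucleotides with noise at 0 gave 6 to 9 weaker stops. The load was higher with MNase-rpL27 in 9 to 11 of 19 segments, with 9 when the called stops were left out, an alternative also chosen after seeing the data. No paired analysis was possible because each condition is 1 library, and for the same reason no library could be left out. The planned analysis of bases and pairing at stops was not run, as no genome was used here. Unknown depth limits every value, most of all near m1A645.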
